A study of Mus musculus with 1119 samples.

Results

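Dermal papilla cells of the growing mouse hair follicle were divided by their level of Rspo3, the mRNA of R-spondin 3, and cells with much Rspo3 were set against cells with little or none. A cell counted as Rspo3-high at 50 TPM or more and as Rspo3-low below 1 TPM, where TPM is a transcript level per length, scaled to the same total in every cell. Cells were thus chosen by their measured Rspo3 level, once they had 2000 or more genes at 1 TPM or more. Rspo3-high cells numbered 41, 42, 38 and 38 on the plates DP2, DP3, DP5 and DP6, which is 52.3% of the dermal papilla cells past that minimum. The 80 cells between the limits (26.3%) are called intermediate, and 65 (21.4%) were Rspo3-low. Another 33 dermal papilla cells fell under the minimum. The compared groups hold 20.02% of the 1119 single cells of the series. All dermal papilla cells, Rspo3-high, intermediate and Rspo3-low alike, came from the back skin of male K14-H2BGFP;LEF1-RFP mice at age P30, with GFP, RFP, integrinα9 and CD117 given as sorting markers. K14-H2BGFP labels nuclei of keratin 14-expressing epithelium and LEF1-RFP is a reporter of the Lef1 gene; no treatment or other allele separates the groups. Each cell was 1 Smart-seq2 library, a full-length cDNA method on sorted cells in plates.

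No animal is named in the labels. Each group was therefore taken as 1 sample, and no p-value or standard error over cells is given. A difference below is the mean of log2(TPM + 1) in Rspo3-high cells minus that in Rspo3-low cells. The 4 plates, read from the prefixes of the cell titles, gave 4 repeats of each difference. The labels do not say whether plates share animals, so the source of the spread over plates is not known. Rspo3 itself chose the groups, and any gene that varies with Rspo3 from cell to cell was drawn in with it, so every difference is a description of how these cells were sorted by Rspo3.

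R-spondins are secreted proteins that raise the sensitivity of cells to WNT ligands. They bind the receptors Lgr4, Lgr5 and Lgr6 and the membrane ubiquitin ligases Rnf43 and Znrf3, which otherwise remove Frizzled receptors from the cell surface. The dermal papilla is the cluster of mesenchymal cells enclosed by the hair bulb; it sends WNT, BMP, FGF and other signals to the matrix keratinocytes that make the hair shaft.

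Promoters are shown for 3 genes that the results turn on and that have an entry in the table. Below are the windows of Rspo4, the R-spondin ligand of the largest difference, of Corin, the dermal papilla surface protease gene, and of Cyr61, the gene of the largest negative difference. They run from 250 bases before to 50 bases after the RefSeq start on GRCm38.p6 (mm10), 5′ to 3′ on the gene's strand: chr2:151842677-151842976 (plus strand) for Rspo4, chr5:72504491-72504790 (minus strand) for Corin and chr3:145649936-145650235 (minus strand) for Cyr61, which RefSeq lists as Ccn1. Capitals mark matches to 4 motifs searched on both strands.
Rspo4: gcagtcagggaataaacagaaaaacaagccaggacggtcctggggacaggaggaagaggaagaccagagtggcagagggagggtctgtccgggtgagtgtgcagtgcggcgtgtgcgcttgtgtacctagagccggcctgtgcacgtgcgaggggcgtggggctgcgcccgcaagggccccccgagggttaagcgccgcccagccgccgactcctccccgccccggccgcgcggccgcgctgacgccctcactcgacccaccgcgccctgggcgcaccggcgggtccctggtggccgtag
Corin: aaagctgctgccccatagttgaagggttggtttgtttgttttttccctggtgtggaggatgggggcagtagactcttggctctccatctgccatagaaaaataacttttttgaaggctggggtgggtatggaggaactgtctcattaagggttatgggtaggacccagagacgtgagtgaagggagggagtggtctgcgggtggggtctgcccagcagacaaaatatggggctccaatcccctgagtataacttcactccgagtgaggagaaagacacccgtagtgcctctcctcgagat
Cyr61: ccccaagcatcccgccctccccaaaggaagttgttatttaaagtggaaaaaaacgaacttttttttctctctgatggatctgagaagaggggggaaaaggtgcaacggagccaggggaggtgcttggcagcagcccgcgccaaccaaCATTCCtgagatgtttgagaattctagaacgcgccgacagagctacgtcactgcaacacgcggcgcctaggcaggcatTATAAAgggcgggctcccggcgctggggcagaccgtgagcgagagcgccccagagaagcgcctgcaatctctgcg
The letters GGAATG, which TEAD factors bind, stood in 14.7% of 32851 RefSeq promoter windows of the same length. The TCF/LEF string CTTTGA stood in 16% of them. The AP-1 string TGACTCA stood in 5.20%, and the TATA box string TATAAA in 13.6%. In the Cyr61 window the TEAD string was found on the opposite strand, so that its reverse complement is in capitals above, and the TATA box string 25 bases before the start. In the Rspo4 and Corin windows none of the 4 strings was found. Of the 10 genes of the largest difference in each direction, 6 of the higher and 7 of the lower had an entry, and the TEAD string stood in a window of 3 of these higher genes (Cntn1, Kctd12 and Apoe) and 2 of these lower genes (Nr4a1 and Cyr61). The TCF/LEF string stood in a window of 1 higher and 1 lower gene. For the AP-1 string these counts were 0 and 2, and for the TATA box string 2 and 1. A gene counted when any of its windows matched, and Cntn1 and Apoe had 3 windows each. The counts per gene are therefore not like the shares per window above. All of these are matches of letters, and binding was not measured.

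**Figure D1:**
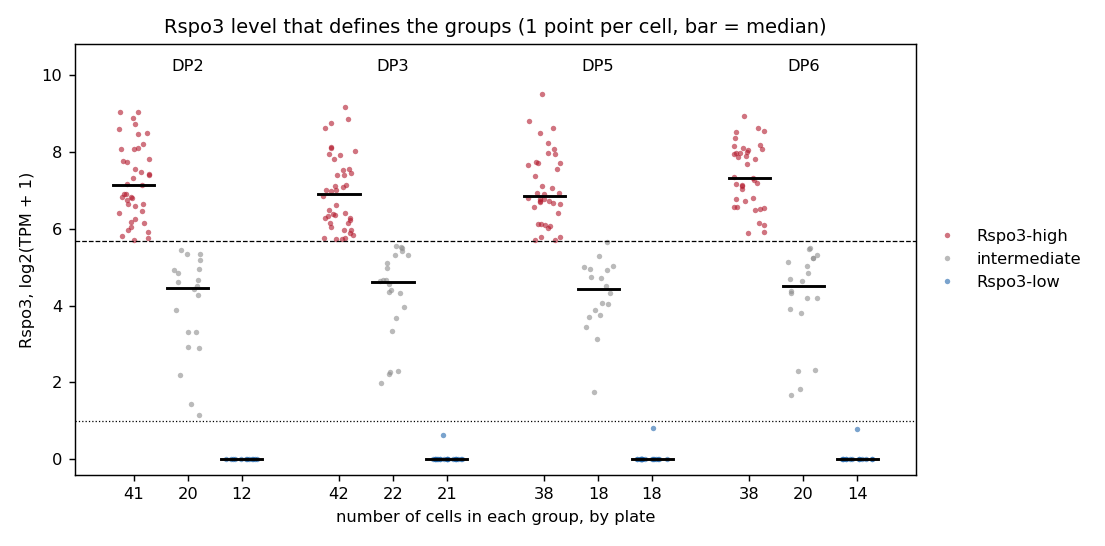
Rspo3 level of each dermal papilla cell past the gene minimum as log2(TPM + 1), by plate, with Rspo3-high, intermediate and Rspo3-low cells from left to right, 1 point per cell, bars at the median and cell numbers under each column. The dashed line is 50 TPM and the dotted line 1 TPM. All 4 plates held all 3 ranges.

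Rspo3 (chr10:29452416-29535867, minus strand, mm10) ran from 50.7 to 728 TPM in Rspo3-high cells, with a median of 131.3 TPM, and was listed at 0 in 62 of the 65 Rspo3-low cells. These values set the groups and are not a finding. Just inside the upper threshold lay cells at 50.7, 50.8 and 51.5 TPM and just outside it cells at 48.97, 45.5 and 45.1 TPM. Around the lower threshold, the 3 Rspo3-low cells above 0 had 0.54, 0.74 and 0.77 TPM, and the nearest intermediate cells 1.21, 1.72 and 2.17 TPM. Levels ran on across the upper limit, with 16 cells from 50 to below 60 TPM and 8 from 40 to below 50 TPM. The Rspo3-low cells numbered 12 on DP2, 21 on DP3, 18 on DP5 and 14 on DP6. Rspo3 shares exon sequence with an antisense gene, Gm48159, and the library kit does not mark strand.

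Rspo3-high cells had a median of 5976 genes at 1 TPM or more, intermediate cells 5993.5 and Rspo3-low cells 5630. Spike-in RNA took a median of 8.43% of TPM in Rspo3-high cells and 10.05% in Rspo3-low cells, ribosomal RNA rows took 66.6% and 64.8%, and mitochondrial rows 2.41% and 2.13%. The number of reads per cell is not recorded in TPM, so a gene listed at 0 may have been missed; the part of these differences in the results was not tested. The papilla label was set beside its markers. At least 3 of the 20 listed dermal papilla genes were at 10 TPM or more in 100% of Rspo3-high cells and in 63 of 65 Rspo3-low cells. Fibroblast markers met the same bar of 3 in 21.4% of Rspo3-high and 43.1% of Rspo3-low cells. A cell could thus meet both, so this count alone does not settle the label.

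Rspo3-high and Rspo3-low cells differed in a limited set of genes. Genes entered the comparison when 30% of the Rspo3-high or of the Rspo3-low cells had them at 1 TPM or more. Of 8329 such genes, 416 (4.99%) were higher in Rspo3-high cells, by a difference of 1 or more with the same sign on all 4 plates, and 3.61% were lower by the mirrored rule. The words higher and lower are used below for genes past this rule, and other genes are given by value. A list member seen in fewer cells than the filter asks could not pass, so the number of members compared stands beside each list. With a pseudocount of 0.1 or 10 in place of 1, the higher genes numbered 1048 or 93 and the lower genes 525 or 75, and after rescaling without spike-in, ribosomal and mitochondrial rows 838 and 457. The median difference over all 8329 genes was 0.12. A difference of 2 or more was reached by 89 of the higher genes, and one of -2 or less by 60 of the lower genes. Mean levels of the intermediate cells lay between those of the other groups for 85.6% of the higher and 90.4% of the lower genes. These genes were chosen by their difference along Rspo3, which favours such an order. The share over all 8329 genes was not computed.

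The other R-spondin ligands went with Rspo3: all 3 were higher in Rspo3-high cells, and their median difference was 4.11, against 0.12 over all genes tested. Rspo4 (chr2:151842927-151874668, plus strand), the most abundant of them, ran from 0 to 2347 TPM with a median of 770 TPM in Rspo3-high cells, and from 0 to 4283 TPM with a median of 58.9 TPM in Rspo3-low cells. The ranges overlapped, and the highest Rspo4 level of all stood in 1 Rspo3-low cell on DP2. That cell had 2972 genes at 1 TPM or more, the fewest among Rspo3-low cells, and also their highest Rspo2 and Corin levels. The next highest Rspo4 level among Rspo3-low cells was 1437 TPM. Both the share of cells with the gene and the level in them differed: 99.4% of Rspo3-high cells (exact binomial 95% interval 96.5 to 100%, counting error only) and 64.6% of Rspo3-low cells (51.8 to 76.1%) held Rspo4 at 1 TPM or more, and the median among these holders was 775 TPM in Rspo3-high and 318.2 TPM in Rspo3-low cells. The difference of Rspo4 was 4.19, and 2.67 to 5.09 by plate; its mean levels were 782 TPM in Rspo3-high and 327.4 TPM in Rspo3-low cells. Taken as the log2 ratio of mean TPM + 1, the median over the 3 ligands was 1.28.

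Rspo2 (chr15:43020794-43170826, minus strand) ran from 0 to 331.6 TPM with a median of 61.7 TPM in Rspo3-high cells, and from 0 to 365.2 TPM with a median of 0 in Rspo3-low cells. It was seen in 91.8% of Rspo3-high cells (86.4 to 95.6%), 81.2% of intermediate cells and 26.2% of Rspo3-low cells (16 to 38.5%). Its mean level was 71.5 TPM in Rspo3-high, 33.8 TPM in intermediate and 14.9 TPM in Rspo3-low cells. The difference of Rspo2 was 4.11, and 2.05 on DP2 against 3.84 to 5.08 on the other plates. Rspo1 (chr4:124986430-125009099, plus strand) was seen in nearly every cell, in 100% of Rspo3-high and 93.8% of Rspo3-low cells. Its level ran from 9.45 to 436 TPM with a median of 162.7 TPM in Rspo3-high cells, and from 0 to 470 TPM with a median of 61.3 TPM in Rspo3-low cells, a difference of 1.86 (1.23 to 2.54 by plate). Rspo1 thus differed in level more than in the share of cells with it.

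Taken per cell, Rspo2 and Rspo4 were seen together in 91.2% of Rspo3-high cells (85.7 to 95.1%). Of the rest 13 had Rspo4 without Rspo2, 1 had Rspo2 without Rspo4 and none lacked both, which allows a share of up to 2.29% (exact binomial bound). Of the 80 intermediate cells, 65 had both and 15 had Rspo4 alone. Of the 65 Rspo3-low cells, 15 had both, 27 had Rspo4 alone, 2 had Rspo2 alone and 21 had neither. Rspo4 alone was therefore the most frequent pattern in Rspo3-low cells, and all 21 cells with neither gene were Rspo3-low.

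**Figure D2:**
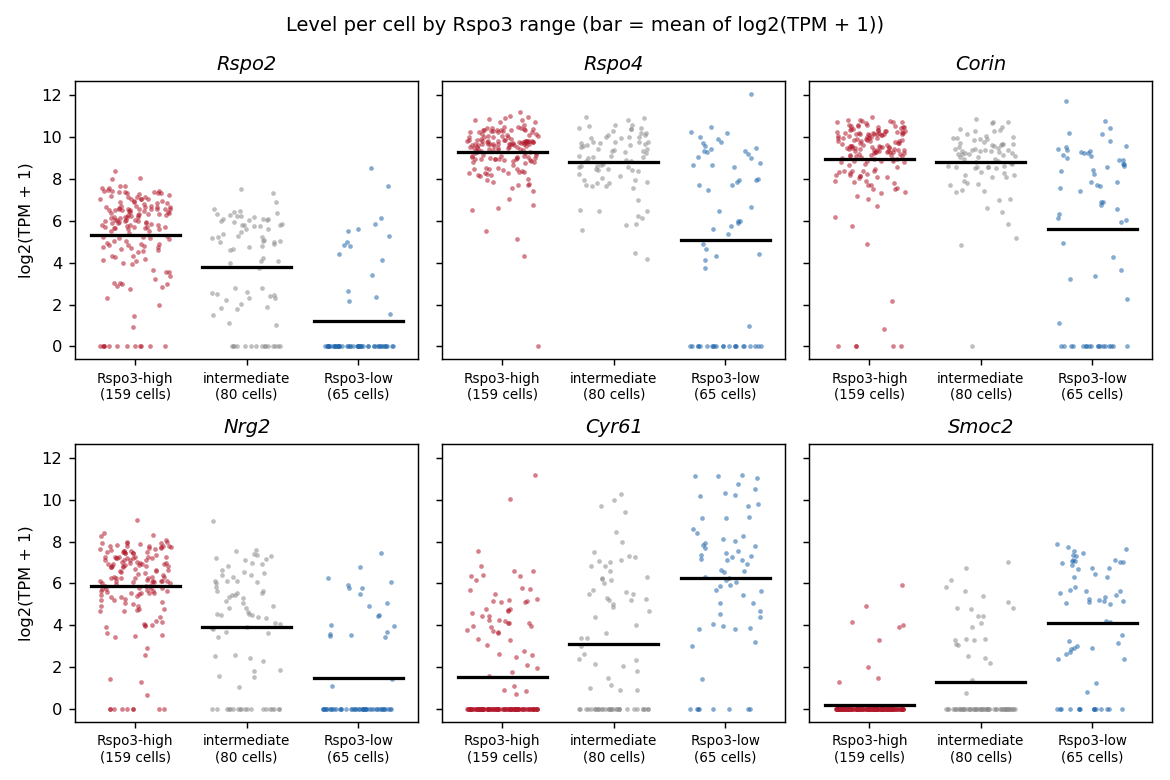
Levels of Rspo2, Rspo4, Corin, Nrg2, Cyr61 and Smoc2 in single cells as log2(TPM + 1), with Rspo3-high, intermediate and Rspo3-low cells from left to right in each panel and bars at the mean of log2(TPM + 1). Means of Rspo2, Rspo4, Corin and Nrg2 were highest and those of Cyr61 and Smoc2 lowest in Rspo3-high cells, with intermediate cells between.

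The Rspo3-high cells themselves spanned a wide range of Rspo3, and were described in 3 steps: 55 cells from 50 to below 100 TPM, 50 cells from 100 to below 200 TPM and 54 cells at 200 TPM or more. Rspo2 was seen in 85.5%, 90% and 100% of these cells, with mean levels of 45.7, 74.9 and 94.5 TPM. Rspo4 gave no such order, at 703, 906 and 748 TPM. Mean levels of Corin fell along the steps, at 825, 780 and 680 TPM, and so did those of Apoe, at 2785, 2584 and 2378 TPM. By mean of log2(TPM + 1) Apoe fell as well, at 11.21, 11.14 and 11.06. Corin gave no order by that measure, at 8.80, 9.12 and 8.93. Among the genes lower in Rspo3-high cells, Crip1 was seen in 63.6%, 42% and 18.5% of cells along these steps, and Cdkn1a in 58.2%, 50% and 24.1%. Smoc2 was seen in 10.9%, 6.00% and 0% of them. Of the 10 genes of the largest negative difference, 7 had a lower mean of log2(TPM + 1) at each step. Igfbp3 did not, with means of 2.18, 2.25 and 2.27, nor did Col6a1, with 2.58, 2.94 and 1.34, or Thy1. Of the 10 genes of the largest positive difference, 7 had a higher mean of log2(TPM + 1) at each step, Rspo2 and Nrg2 among them. Both directions thus held genes that followed the steps and genes that did not. These genes were chosen by their difference between Rspo3-high and Rspo3-low cells. The same share over all genes compared was not computed, so the counts are a description only.

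Of the 5 receptor and ligase genes 2 were compared, Lgr4 and Lgr6. Lgr6, a stem cell marker of skin epithelium in other work, was lower in Rspo3-high cells, and neither was higher, with a median difference of 0.05 over the 5. Lgr6 ran from 0 to 138.9 TPM with a median of 0 in Rspo3-high cells, and from 0 to 161.6 TPM with a median of 16.6 TPM in Rspo3-low cells. It was seen in 18.9% of Rspo3-high cells (13.1 to 25.8%), 55% of intermediate cells and 75.4% of Rspo3-low cells (63.1 to 85.2%). The difference of Lgr6 was -2.79, and -3.37 to -1.78 by plate. Lgr4, the receptor found in most tissues, had medians of 9.59 and 4.21 TPM in Rspo3-high and Rspo3-low cells and a difference of 0.75, which was below 0 on 1 plate. Lgr5, Znrf3 and Rnf43 were scarce: Lgr5 was seen in 8.81% of Rspo3-high and 7.69% of Rspo3-low cells, Znrf3 in 27.7% and 24.6%, and Rnf43 in 0% of either group, which allows up to 2.29% of Rspo3-high and 5.52% of Rspo3-low cells.

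Genes of WNT signalling gave a mixed picture. Of 16 WNT antagonists, 10 of them compared, 4 were higher and 1 was lower, with a median difference of 0. Sfrp1, a secreted protein that binds WNT ligands, had a median of 254.9 TPM in Rspo3-high cells and 29.3 TPM in Rspo3-low cells, a difference of 3.35 (2.24 to 4.12 by plate). Sostdc1, a secreted antagonist of WNT and BMP, was higher by 1.48, with medians of 603 and 278.9 TPM. The lower member was Dkk2, a ligand of the WNT co-receptors Lrp5 and Lrp6, with medians of 57.2 TPM in Rspo3-high and 220 TPM in Rspo3-low cells and a difference of -2.31 (-2.68 to -1.20 by plate). Sfrp1 and Dkk2 thus stood on opposite sides of the Rspo3 split.

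Among 10 WNT target genes, 7 of them compared, 3 were higher and 1 was lower. Lef1, the transcription factor whose reporter was used in the sort, had medians of 55.9 TPM in Rspo3-high and 14.98 TPM in Rspo3-low cells, a difference of 1.98. Axin2, a negative regulator of the pathway that WNT signalling induces, had medians of 41.3 and 8.39 TPM and a difference of 1.85. The lower member, Tcf7, had a difference of -1.38. Lef1 and Tcf7 encode related DNA-binding partners of β-catenin and stood on opposite sides. Of 19 WNT ligands only 1 was seen in enough cells to be compared, and of 17 genes of WNT secretion and reception 12 were; none of these passed the rule. Wnt5a, the WNT ligand seen in most of these cells, had means of 16.6 TPM in Rspo3-high and 17.8 TPM in Rspo3-low cells.

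**Figure D3:**
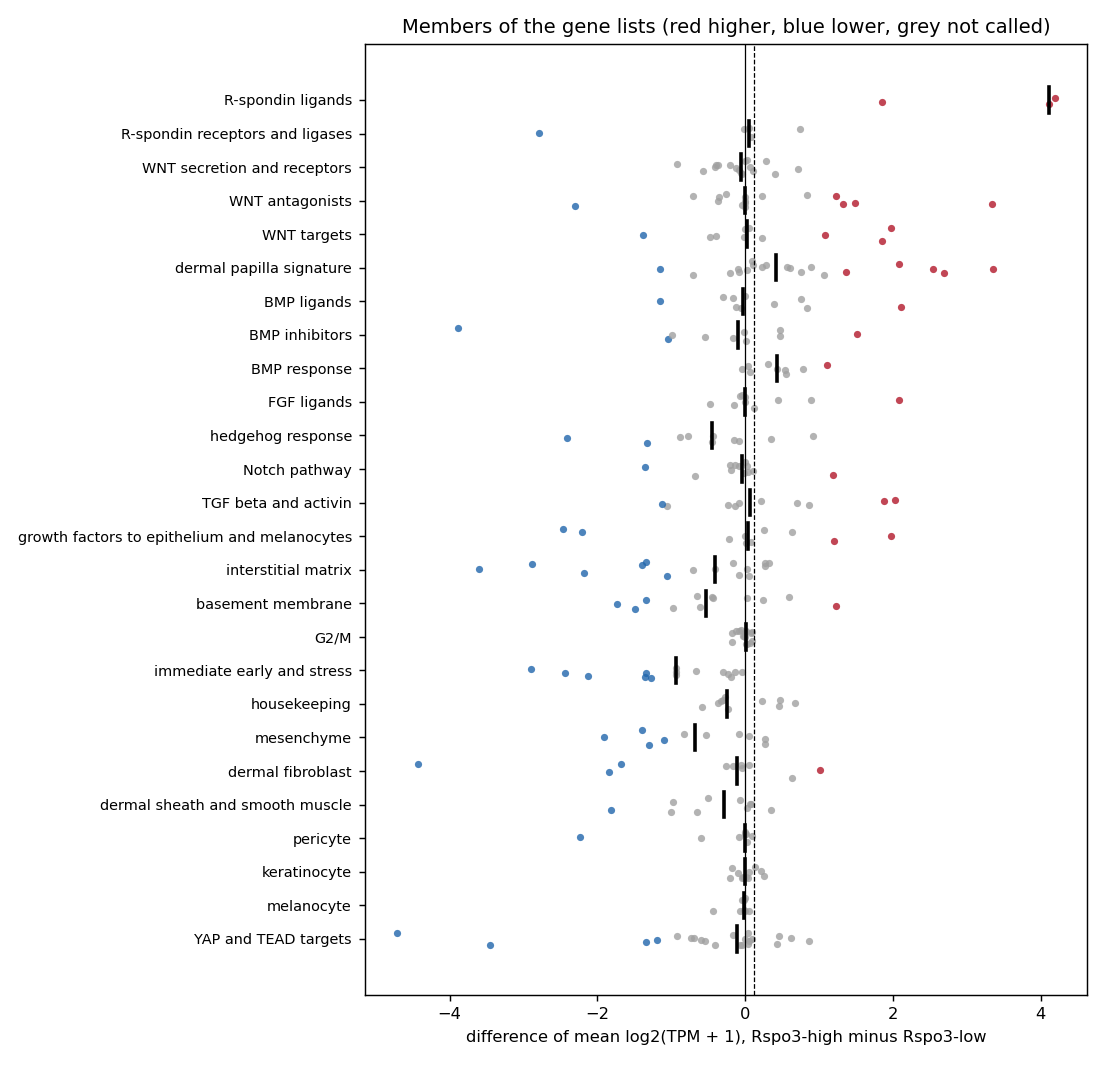
Difference of mean log2(TPM + 1), Rspo3-high minus Rspo3-low, for each member of 26 gene lists, 1 point per gene, red for higher, blue for lower and grey for neither. Black bars are list medians over all members, and the dashed line is the median of 0.12 over all 8329 genes tested. The R-spondin ligands stand at the right with a median of 4.11, and the immediate early and stress genes have a median of -0.93.

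Dermal papilla genes leaned to Rspo3-high cells, to an extent that varied by plate. Of 20 genes on the list, 16 of them compared, 5 were higher and 1 was lower. The median difference was 0.42, with plate medians from 0.06 to 0.94, and 0.18 as a ratio of means. Summed levels of the list had medians of 2843 TPM in Rspo3-high, 3385 TPM in intermediate and 2557 TPM in Rspo3-low cells. Corin, a serine protease that acts on the agouti pathway, had a median of 705 TPM in Rspo3-high cells and 118.9 TPM in Rspo3-low cells, a difference of 3.36 (1.54 to 4.51 by plate). Alpl, the alkaline phosphatase long used as a stain of the papilla, was seen in 67.3% of Rspo3-high and 15.4% of Rspo3-low cells, a difference of 2.70. Crabp1, a retinoic acid binding protein, and Fgf10, a ligand for epithelial FGF receptors, had differences of 2.55 and 2.09. Bmp4 was the lower member, with medians of 30.5 TPM in Rspo3-high and 48.9 TPM in Rspo3-low cells and a difference of -1.16.

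Signals other than WNT were divided as well. Among 10 BMP ligands, 7 of them compared, Bmp3 was higher by 2.11 and Bmp4 lower. Of 10 BMP inhibitors, 6 of them compared, the membrane decoy receptor Bambi was higher by 1.51, and Smoc2 and the secreted antagonist Nog were lower, by -3.89 and -1.05. In the TGF beta and activin list, with 7 of 10 genes compared, Inhba, the activin A subunit, had medians of 976 TPM in Rspo3-high and 443 TPM in Rspo3-low cells (difference 2.03), Ltbp1, which stores latent TGF beta in matrix, had 285.4 and 76.6 TPM (difference 1.89), and Inhbb was lower by -1.13. The activin subunits therefore stood on opposite sides.

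Of 10 factors that act on epithelium or melanocytes, 5 of them compared, 2 were higher and 2 lower. Igf1, a growth factor for hair matrix, was seen in 61.6% of Rspo3-high and 18.5% of Rspo3-low cells, and Edn3, an endothelin for melanocytes, in 57.2% and 40%; their differences were 1.98 and 1.21. Agouti (gene symbol a), which switches melanocytes to yellow pigment, was seen in 26.4% of Rspo3-high and 58.5% of Rspo3-low cells, a difference of -2.47. The other lower member was Ntn1, a guidance protein, seen in 1.26% of Rspo3-high and 43.1% of Rspo3-low cells, a difference of -2.20. Corin, which curbs agouti, and agouti itself thus went in opposite directions. The agouti gene shares exon sequence with Raly.

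Genes of the hedgehog list leaned to Rspo3-low cells. With 8 of 10 compared, none was higher and 2 were lower, and the median difference was -0.45. Gas1, a co-receptor of hedgehog ligands, had medians of 8.54 TPM in Rspo3-high and 57.9 TPM in Rspo3-low cells, a difference of -2.42. Gli1, a transcription factor induced by the pathway, was seen in 34% of Rspo3-high and 58.5% of Rspo3-low cells, a difference of -1.33; its exons overlap those of Arhgap9 on the other strand. In the Notch list, with 5 of 12 genes compared, the receptor Notch2 was higher by 1.19 and the target Hes1 lower by -1.35, with a median over 12 genes of -0.05. Of 3 FGF ligands compared Fgf10 alone passed the rule, and of 5 BMP response genes compared Id3 alone, by 1.10. Mean levels of Id3 were alike, at 112.1 TPM in Rspo3-high and 111.2 TPM in Rspo3-low cells, and its log2 ratio of mean TPM + 1 was 0.01.

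Among the genes of the largest positive difference were Nrg2, Plod2, Cntn1, Rspo4, Rspo2, Dusp10, Kctd12, Apoe and Rgs2, at 4.41 to 3.73. Nrg2, a neuregulin ligand of ErbB receptors, ran from 0 to 525 TPM with a median of 77.2 TPM in Rspo3-high cells and from 0 to 175.1 TPM with a median of 0 in Rspo3-low cells. It was seen in 93.7% of Rspo3-high, 76.2% of intermediate and 32.3% of Rspo3-low cells. Plod2, a lysyl hydroxylase that prepares collagen for cross-linking, had medians of 141.3 TPM in Rspo3-high and 3.34 TPM in Rspo3-low cells, a difference of 4.30. Cntn1, a cell adhesion protein best known from neurons, had medians of 123.4 and 1.15 TPM and a difference of 4.25, which was 6.42 on DP6 and 3.22 to 3.91 elsewhere. In the median Rspo3-low cell all 3 genes were at or near 0, and few Rspo3-high cells lacked them.

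Dusp10, a phosphatase of stress-activated kinases, had medians of 145.3 TPM in Rspo3-high and 0 TPM in Rspo3-low cells. Kctd12, an accessory subunit of GABA-B receptors, had 175.2 and 11.4 TPM. Apoe, a lipid carrier, was the most abundant of these, from 272.6 to 9120 TPM with a median of 2339 TPM in Rspo3-high cells, and from 0 to 5287 TPM with a median of 479 TPM in Rspo3-low cells. Every Rspo3-high cell held Apoe, and 83.1% of Rspo3-low cells did. Rgs2, an inhibitor of G protein signalling, had medians of 170 TPM in Rspo3-high and 6.72 TPM in Rspo3-low cells. Plod2 and Kctd12 share exon sequence with antisense genes (Gm38391 and Gm26778).

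**Figure D4:**
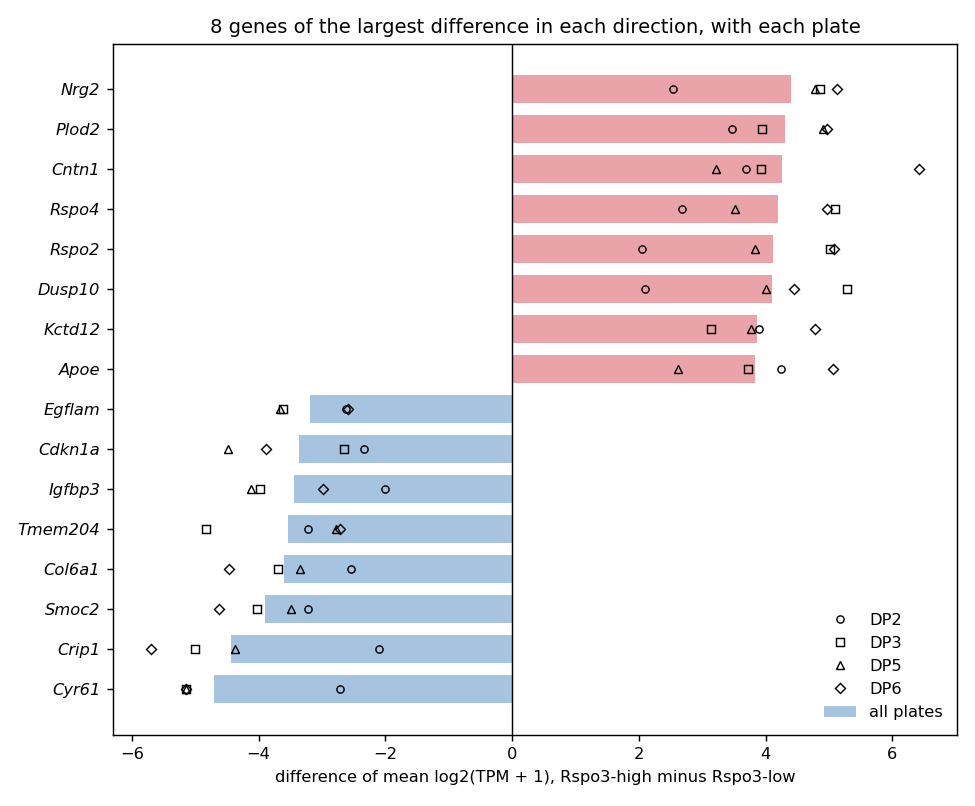
Difference of mean log2(TPM + 1), Rspo3-high minus Rspo3-low, for the 8 genes of the largest difference in each direction, as bars over all plates and open symbols for plates DP2, DP3, DP5 and DP6. The genes were drawn from those past the rule, which asks for the same sign on every plate. That all plate values lie on the side of their bar follows from this choice and is not a finding. Plate values of DP2 are nearest to 0 for Nrg2, Rspo2, Dusp10, Crip1 and Cyr61, among others.

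At the other end stood Cyr61, Crip1, Smoc2, Col6a1, Tmem204, Igfbp3, Cdkn1a, Egflam, Thy1 and Nr4a1, at -4.71 to -2.90. Cyr61, a matricellular protein, ran from 0 to 2296 TPM with a median of 0 in Rspo3-high cells, and from 0 to 2274 TPM with a median of 97.2 TPM in Rspo3-low cells. It was seen in 32.7% of Rspo3-high cells (25.5 to 40.6%), 57.5% of intermediate cells and 87.7% of Rspo3-low cells (77.2 to 94.5%). The ranges overlapped, and 1 Rspo3-high cell stood above the highest Rspo3-low cell. Its difference was -4.71, and -2.71 on DP2 against about -5.14 on each other plate.

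Smoc2, a calcium-binding matricellular protein, was rare in Rspo3-high cells. It was seen in 5.66% of Rspo3-high, 30% of intermediate and 75.4% of Rspo3-low cells, with highest levels of 59.9 TPM in Rspo3-high and 232.1 TPM in Rspo3-low cells, a difference of -3.89 (-4.63 to -3.22 by plate). Thy1, a surface glycoprotein of fibroblasts, was seen in 8.18% of Rspo3-high and 63.1% of Rspo3-low cells. Cdkn1a, the cell cycle inhibitor p21, had medians of 0 TPM in Rspo3-high and 91.3 TPM in Rspo3-low cells, and Crip1, a small LIM-domain protein, 0 and 157.6 TPM. Igfbp3, which binds insulin-like growth factors, had means of 15.9 and 328.7 TPM. Egflam, a matrix ligand of dystroglycan, was seen in 29.6% of Rspo3-high and 80% of Rspo3-low cells, and Tmem204 in 33.3% and 78.5%. Egflam and Cdkn1a overlap exons of antisense genes (Gm16029 and AC167363.2).

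Matrix genes leaned to Rspo3-low cells. Of 15 interstitial matrix genes, 13 of them compared, none was higher and 6 were lower, with a median difference of -0.41; of 12 basement membrane genes, 11 of them compared, 1 was higher and 3 were lower, with a median of -0.53. Col6a1 and Col6a2, chains of collagen VI, had medians of 3.64 and 16.3 TPM in Rspo3-high cells, against 70.8 and 109.3 TPM in Rspo3-low cells, and differences of -3.61 and -2.88. Tnc, the matrix glycoprotein tenascin C, was seen in 2.52% of Rspo3-high and 52.3% of Rspo3-low cells. Col1a1 was lower by -1.39, with 1 Rspo3-low cell at 16687 TPM against a median of 283.4 TPM for its group. In the basement membrane list Nid1, Lama2 and Lamb1 were lower, by -1.73, -1.50 and -1.35, and the laminin chain Lama4 was higher by 1.24. Laminin genes thus did not move as 1 group.

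All 15 immediate early and stress genes had negative differences; 8 were compared and 6 passed the rule, with a median of -0.93 and plate medians from -1.65 to -0.31. Nr4a1, a nuclear receptor induced within minutes of stimulation, had medians of 0 TPM in Rspo3-high and 35.01 TPM in Rspo3-low cells, a difference of -2.90. Zfp36, which speeds decay of mRNA, and Junb, an AP-1 subunit, had differences of -2.44 and -2.13, and Dusp1, a kinase phosphatase, -1.36. Junb overlaps exons of Prdx2 on the other strand.

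The list of 22 YAP and TEAD target genes was added after the lead of Cyr61 had been seen. With 13 compared, none was higher, 4 were lower and the median difference was -0.12. The 4 were Cyr61, Igfbp3, Ptpn14 (difference -1.35) and Ccdc80 (difference -1.19). Ctgf, a close relative of Cyr61, had a difference of -0.74 and means of 1.95 TPM in Rspo3-high and 7.42 TPM in Rspo3-low cells, and Ankrd1 was listed at 0 in every cell of these groups. The large difference of Cyr61 was thus not shared by most of the list.

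Cell cycle genes were scarce. Of 16 S phase genes 4 were seen in enough cells to be compared and none passed the rule, and of 16 G2/M genes 0 were; Mki67, a proliferation marker, was seen in 4.40% of Rspo3-high and 3.08% of Rspo3-low cells. Of 10 housekeeping genes none passed the rule, with a median of -0.25.

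Markers of other cells of the skin were examined beside these results. Mesenchyme genes were lower in 4 of 10 cases, all 10 compared, with a median of -0.68: Pdgfrb, Col1a1, Twist2 and Vim had differences of -1.92, -1.39, -1.30 and -1.10. Dermal fibroblast markers were higher in 1 (Pi16, 1.02) and lower in 3 (Crip1, Ly6a and Mfap5) of 10, with 6 compared, and their summed level ran from 0 to 717 TPM (median 65.7) in Rspo3-high cells, and from 3.14 to 1412 TPM (median 243.4) in Rspo3-low cells. At least 3 fibroblast markers at 10 TPM or more were found in 21.4% of Rspo3-high and 43.1% of Rspo3-low cells. Genes of dermal sheath and smooth muscle gave 1 lower member of 10, with 3 compared, Acta2 at -1.81, and summed to 0 to 153.7 TPM (median 1.59) in Rspo3-high and 0 to 842 TPM (median 17.8) in Rspo3-low cells. Such cells with 3 or more markers numbered 1 among Rspo3-high and 9 among Rspo3-low cells. Summed levels of both lists were thus lower in Rspo3-high cells at the median, and their part in the other differences was not tested.

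Of 8 pericyte markers only Cspg4 was compared, and it was lower, at -2.23; the list summed to 0 to 141.4 TPM in Rspo3-high and 0 to 191.7 TPM in Rspo3-low cells, and Higd1b was listed at 0 in both groups. Of the melanocyte list 2 genes were compared and neither passed the rule. No gene of the keratinocyte, endothelium, immune, Schwann, muscle progenitor or adipocyte lists was seen in enough cells to be compared. Keratinocyte markers summed to 0 to 302.7 TPM (median 5.52) in Rspo3-high and 0 to 76.3 TPM (median 5.73) in Rspo3-low cells. Cdh5, Tie1 and Cldn5 of endothelium, Cd3e of T cells, Myod1, Pax7 and Myog of muscle, and Adipoq of fat were seen in no cell of either group. Cells with 3 or more markers of pericytes, keratinocytes, melanocytes, endothelium, immune cells, Schwann cells, muscle or fat numbered 2 among Rspo3-high and 3 among Rspo3-low cells.

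Rspo3-low cells were not uniform in Corin. The gene was below 10 TPM in 7 Rspo3-high cells (4.40%) and in 22 of 65 Rspo3-low cells (33.8%), on every plate (3, 8, 5 and 6 of the Rspo3-low cells on DP2, DP3, DP5 and DP6). In these 22 cells Rspo4, Rspo2 and Fgf10 were rarer. Rspo4 was seen in 22.7% of them against 86.05% of the 43 Rspo3-low cells with Corin at 10 TPM or more. Rspo2 was seen in 4.55% against 37.2%, and Fgf10 in 45.5% against 81.4%. Neither Rspo2 nor Rspo4 was seen in 16 of the 22 cells and in 5 of the 43. Some other genes were more frequent in them, with Acta2 seen in 50% against 20.9%, Mfap5 in 72.7% against 25.6%, Thy1 in 90.9% against 48.8% and Ntn1 in 90.9% against 18.6%. Over the 10 fibroblast markers the median difference between the 22 and the 43 cells was 0.48, with 7 above 0, and over the 10 sheath and smooth muscle genes 0.10, with 5 above 0. Agouti and Dkk2 did not go with them: agouti was seen in 45.5% of the cells with little Corin and 65.1% of the others, and Dkk2 in 90.9% and 90.7%. Corin was looked at here after its difference was known, and it chose these cells.

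**Figure D5:**
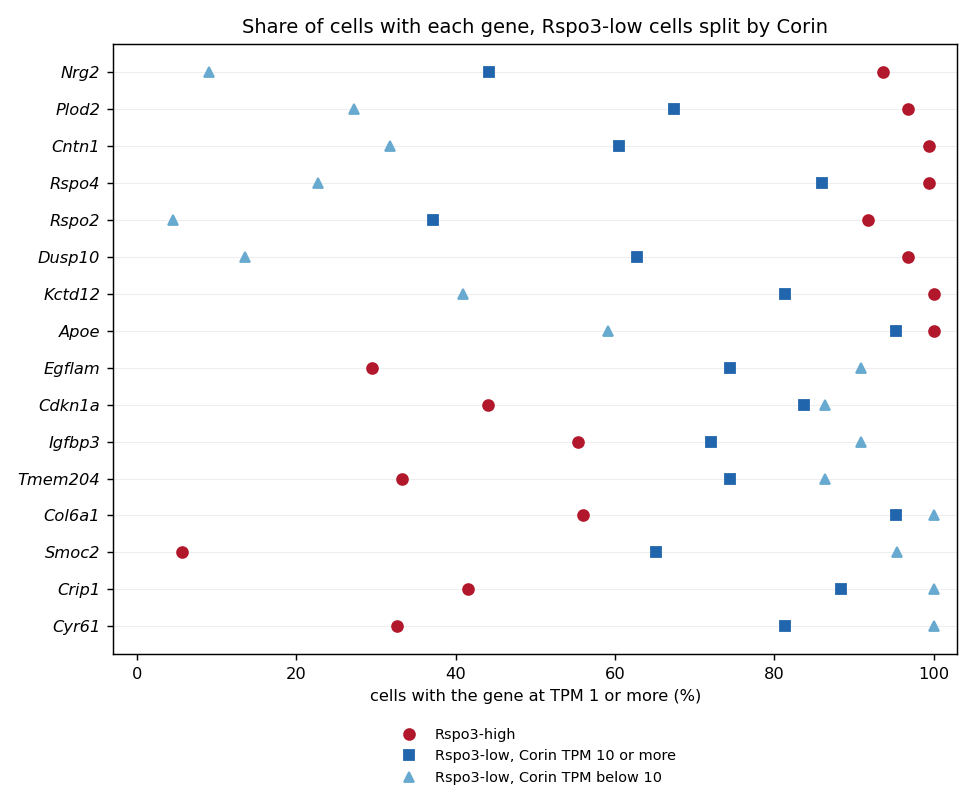
Percent of cells with each gene at 1 TPM or more, for the 8 genes of the largest difference in each direction, in Rspo3-high cells, 43 Rspo3-low cells with Corin at 10 TPM or more and 22 Rspo3-low cells with Corin below 10 TPM. For all 16 genes the Rspo3-low cells with Corin lie between the other sets, and for Rspo4 and Apoe they lie near the Rspo3-high cells.

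When both groups were held to cells with Corin at 10 TPM or more (95.6% of the Rspo3-high cells and 43 of the 65 Rspo3-low cells), 66.3% of the higher and 63.8% of the lower genes passed the rule again. Differences of Rspo2 and Nrg2 were then 3.66 and 3.91, and those of Cyr61, Smoc2 and Col6a1 -3.89, -3.21 and -3.18. For Rspo4 the difference was 2.30, for Apoe 2.32, for Crabp1 1.28 and for Inhba 0.85. Ntn1, Mfap5 and Acta2 had -0.86, -0.67 and -1.10 there, and agouti and Dkk2 -3.0 and -2.40. Corin itself still differed by 1.13 between these cells. So Rspo2, Nrg2, Cyr61, Smoc2 and Col6a1 kept most of their difference among cells with Corin. Differences of agouti and Dkk2 were somewhat larger there than over all cells. Rspo4, Apoe, Crabp1, Inhba, Ntn1, Mfap5 and Acta2 kept less.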

How the data were processed

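Single dermal papilla cells were sequenced with Smart-seq2 and Nextera XT libraries, 1 library per cell, so no barcodes are shared between libraries. The authors aligned reads to mm10 and estimated levels with Bowtie2 2.2.9 and RSEM 1.2.30, per the submitters' processing notes, and deposited TPM for 46609 rows, 92 of them spike-ins; columns summed to 999999.26 to 1000000.58. TPM keeps no depth, so precision per cell is unknown. The libraries do not mark strand.

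Cells were grouped by Rspo3 TPM. Members, lists and rules were chosen with earlier results of these data known. Genes seen in 30% of cells of a group were compared as mean log2(TPM + 1), pseudocount 1, which understates changes of low genes; Rspo3, spike-in, ribosomal and mitochondrial rows were left out. With no animals named, no test was run. Named genes were the 10 of the largest difference in each direction among those past the rule, without predicted models and pseudogenes, the R-spondin ligands, receptors and ligases, and up to 4 members of each other list with the largest difference. Wnt5a, Mki67, Ctgf, Ankrd1 and the markers given as absent were named after their values were seen. One gene that the rule names is not reported here. The list of YAP and TEAD targets was also added then. Intervals are exact binomial (95%), for counting error only. Scripts were tested on the measured cells, dealt out again within plates, with some genes changed by known folds. Promoters came from RefSeq (GRCm38.p6), which had entries for 6 of the 10 higher and 7 of the 10 lower genes; gene positions are those of GENCODE on mm10. Python 3.11.15, numpy 2.4.6, pandas 2.3.3 and scipy 1.17.1 were used. The alternatives numbered 13, with 2 more (Corin at 10 TPM or more, ratio of means) chosen after seeing the data.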

Additional observations from a re-analysis of the deposited data

How the results depend on the processing

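Under the alternatives no direction turned among named genes past the rule or among lists whose median had 1 sign on all 4 plates. Both sets had been chosen for that sign, which made a turn less likely. Some other lists with medians near 0 did turn. The dermal fibroblast median of -0.11 became 0.05 among cells with Corin at 10 TPM or more. That of WNT targets, 0.03, became -0.03 as a ratio of means. Of 36 counts, 528 list medians and 2272 values of named genes recomputed, 30, 446 and 1978 stayed within the limit set for them (1.5 times for a count, 1 SD over plates otherwise). For the WNT ligand and muscle progenitor lists this SD was 0. All their recomputed medians therefore counted as outside the limit, also where the median stayed at 0. Counts of higher and lower genes (416, and 3.61% of those tested) became 1048 and 525 with a pseudocount of 0.1, 93 and 75 with a pseudocount of 10, and 838 and 457 after rescaling without spike-in, ribosomal and mitochondrial rows; leaving out 1 plate at a time gave 422 to 508 higher genes, and lower genes within 1.5 times the count over all plates. The median over all genes tested, 0.12, became 0.25 with a pseudocount of 0.1 and 0.00 as a ratio of means. The R-spondin ligand median of 4.11 became 5.31 and 2.04 with pseudocounts of 0.1 and 10, 2.30 among cells with Corin at 10 TPM or more and 1.28 as a ratio of means. The interstitial matrix median of -0.41 became -0.30 and -0.53 with Rspo3-high cells from 20 or 100 TPM, -0.51 within ranges of detected genes, -0.51 to -0.33 when 1 plate at a time was left out (the first without DP6) and -1.12 as a ratio of means. The median of immediate early and stress genes, -0.93, became -1.53 with a pseudocount of 0.1 and -1.96 as a ratio of means. The cause of these shifts was not tested. Differences taken within each plate and weighted equally gave 427 higher genes; the cells carry no number shared between the groups other than the plate.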

Other observations

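The cells that receive papilla signals were measured in a separate table, as basal hair bulb cells sorted from Lhx2-GFP (CD1) mice of mixed sex at age P30, of which all but 5 had 2000 or more genes at 1 TPM or more and are used here. Strain, sex and sort differ from those of the papilla cells and the tables were made apart, so levels are given without a comparison. R-spondin ligands were nearly absent from them: Rspo3 was seen at 1 TPM or more in 2 cells, Rspo2 in 0, Rspo4 in 5 and Rspo1 in 4. The receptors and ligases were present. Lgr4 was seen in 52.8% of the hair bulb cells (exact binomial 95% interval 47.6 to 57.9%), Lgr5 in 14.5% (11.1 to 18.5%) and Lgr6 in 10.03% (7.19 to 13.5%), with Lgr5 at 50 TPM or more in 40 cells. Rnf43 was seen in 77.04% and Znrf3 in 75.7% of them, with median levels of 8.67 and 5.68 TPM. Axin2, the WNT-induced regulator, was seen in 76.8%. Corin was seen in 3 of these cells.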
